A study of Mus musculus with 8 samples.

Results

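Interferon regulatory factors (IRFs) and signal transducers and activators of transcription (STATs) are the transcription factors that turn interferon and cytokine signals into gene expression. The genes followed here are Irf1, Irf2, Irf3, Irf5, Irf7, Irf8, Irf9, Stat2 and Stat3. They were found through the RefSeq transcript that the scanner files give for each probe. Of the 37246 measured probes 15 belonged to these 9 genes, and 13 probes of 8 genes could be tested, having at least 2 arrays with a signal well above background. In all, 13961 named genes had such a probe. The probe of Irf3 (NM_016849) and another Irf1 probe (NM_001159393) were not well above background on any array. No level is given for Irf3, and Irf1 is described from its other probes.

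Embryonic fibroblasts, the collagen-making cells that grow out when mouse embryos are put in culture, came from Atm-/- and Atm+/+ littermates and were kept in DMEM with 15% fetal calf serum. Both genotypes were collected untreated (0 h) and at 4, 8 and 24 h after treatment with neocarzinostatin (NCS). This radiation-like agent cuts both DNA strands, and its dose is not given in the sources used here. Atm encodes a kinase that signals DNA double-strand breaks. The 8 cultures were read on 8 one-colour Agilent arrays, 1 for each genotype and time point, in a series built to study long noncoding RNAs in the DNA damage response. How many embryos or lines stand behind a genotype is not given in the labels, so the p-values below rest on the spread between arrays only. With 1 array per genotype and time point, this spread mixes array noise, which may be technical, with other variation. Any real difference in time course between genotypes is part of it and cannot be told apart from noise. Each genotype had a slide of its own, so genotype and slide cannot be told apart.

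Type I interferons bind a surface receptor whose kinases phosphorylate STAT2, and this joins IRF9 in the complex ISGF3, which switches on antiviral genes. IRF3 and IRF7 work upstream and drive the interferon genes themselves, IRF7 being made in larger amounts once interferon has been sensed. IRF1 activates interferon-gamma and antigen presentation genes, with IRF2 as its competitor at the same sites. IRF5 and IRF8 are known mainly from immune cells, and STAT3 carries signals of the interleukin-6 family. DNA damage is known to induce interferon signalling in several cell types, through DNA fragments in the cytosol and through NF-kB.

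ISGF3 binds an element known as ISRE and STAT dimers bind an element known as GAS, so the promoters of the members were read for both. The 250 bases before each RefSeq start (assembly GRCm38.p6) were searched on both strands for GAAANNGAAA (ISRE) and TTCNNNGAA (GAS, which reads alike on both strands). Among 32851 mouse promoters 2.977% held the first and 7.02% the second. Counted per gene, with a match at any of its starts, the shares were 3.463% and 8.13% of 27025 genes. At least 1 match was held by 4 members. Their matched letters are in capitals, and each window is on the plus strand of its chromosome and in the direction of its gene.
Irf1, GAS, chr11:53769899-53769957: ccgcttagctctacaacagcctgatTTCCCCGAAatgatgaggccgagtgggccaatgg
Irf2, ISRE then GAS, chr8:46739495-46739554: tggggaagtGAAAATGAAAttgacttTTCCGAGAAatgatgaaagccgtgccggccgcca
Irf8, GAS, found 2 times, chr8:120736162-120736238: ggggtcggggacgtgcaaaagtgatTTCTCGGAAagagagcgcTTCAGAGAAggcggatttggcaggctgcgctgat
Stat2, ISRE on the opposite strand, chr10:128270251-128270310: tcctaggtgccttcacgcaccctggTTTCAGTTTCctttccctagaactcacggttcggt
The match began 90 bases before the RefSeq start concerned in Irf1 and 222 bases before that in Stat2. Irf1 and Irf8 each have another RefSeq start, whose window held neither run of letters. The windows of Irf3, Irf5, Irf7, Irf9 and Stat3 held neither run of letters. A match describes the sequence and is no evidence of binding in these cells.

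On every array between 57.3% and 61.4% of spots were well above background and none was saturated. Feature Extraction marked 1545 spots as outliers on the Atm+/+ 24 h array and between 44 and 203 on the others. No value of a member was lost to these marks, but several pathway genes lack a value at Atm+/+ 24 h, which is said where they are named. The Atm probe was lower in Atm-/- than in Atm+/+ cells by 1.24 ± 0.18 (log2, SE, adjusted p = 0.0137) and was well above background on all arrays. Xist averaged 4.19 higher in Atm-/- cells on the log2 scale, and the Y-linked genes Ddx3y, Eif2s3y, Uty and Kdm5d were well above background on 0 of 4 Atm-/- arrays, so genotype cannot be told apart from the sex of the embryos either. All 14 fibroblast markers checked were detected, 12 of them on all 8 arrays. Over these 12 the mean level was 4.06 to 4.31 on Atm-/- arrays and 4.45 to 4.76 on Atm+/+ arrays, and 6 of the 14 were called lower in Atm-/- cells. Markers of blood cells and macrophages were detected too, and their levels stand beside the genotype results.

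The comparison of genotypes asks which of these factors differ in cells lacking Atm, over all time points. Irf7, Irf8, Stat2, Irf1 and Irf9 were lower in Atm-/- cells, by 1.53-fold (Irf9) to 2.92-fold (Irf8). Irf2, Irf5 and Stat3 also had negative differences, none of which passed the test. Thus 5 of 8 tested members were called lower and 0 higher, at an adjusted p under 0.05 in limma's moderated test across all kept probes. Of all 23295 probes so tested 14.7% were called, 7.28% higher and 7.38% lower, and of the main probes of 13957 named genes 7.45% were called lower. The median difference was -0.68 over the 8 members and 0.01 over all named genes. In 4 members, Irf1, Irf7, Irf8 and Stat2, all 4 Atm-/- arrays lay below all 4 Atm+/+ arrays. The same held for 8.29% of the 12769 named genes measured on all arrays. Irf7 and Irf8 were called under every alternative processing. Irf1 and Irf9 lost the call whenever an array of 0, 4 or 8 h was left out (adjusted p = 0.0683 to 0.121 for Irf1, and 0.129 to 0.164 for Irf9), and Stat2 lost it without either 4 h array (adjusted p = 0.0548).

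**Figure D1:**
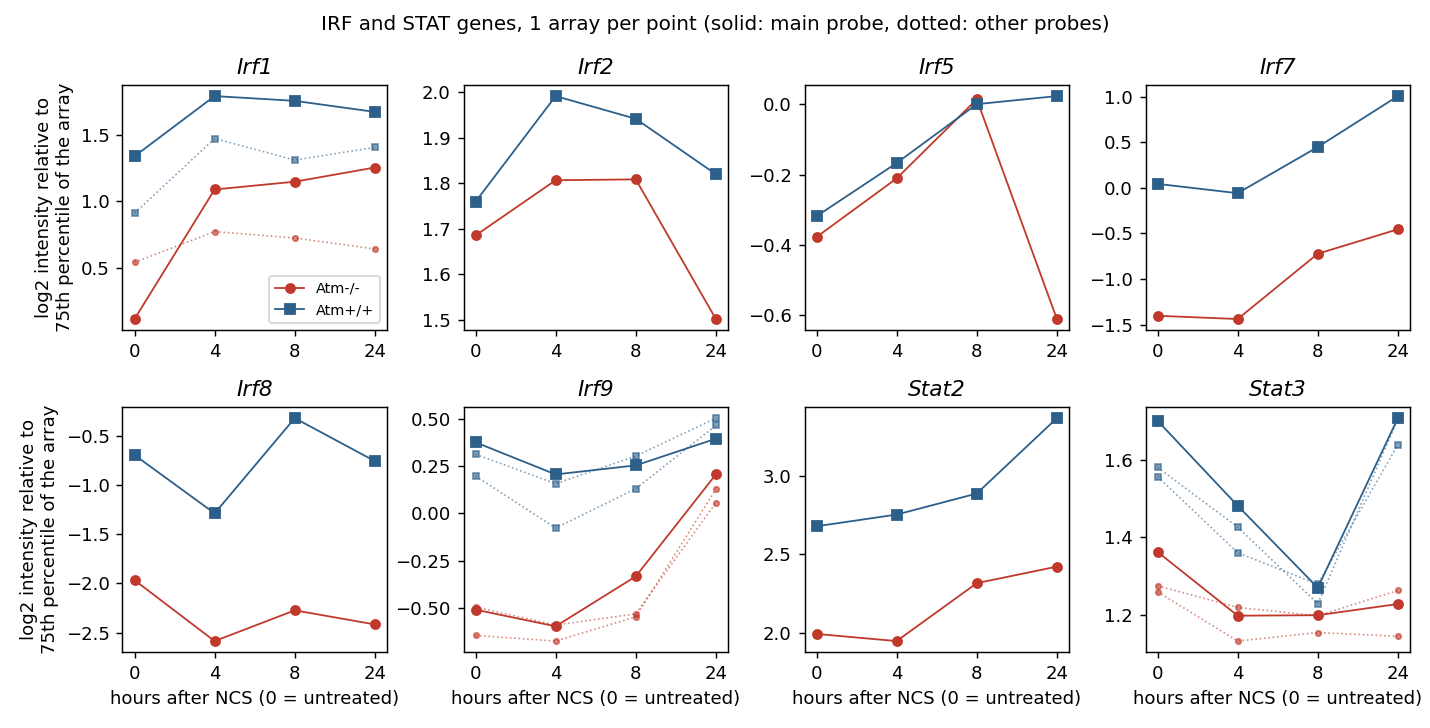
Level of each tested gene (vertical axis, log2 intensity minus that of the 75th percentile probe) at 0, 4, 8 and 24 h (horizontal axis, times evenly spaced), 1 array per point, Atm-/- as red circles and Atm+/+ as blue squares. Solid lines are the main probe and dotted lines are other probes of the gene, each panel with its own vertical scale. The Atm-/- line of Irf7, Irf8, Stat2 and Irf1 lies below the Atm+/+ line with no overlap of values, while Irf5 differs by at most 0.06 until 24 h.

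Levels are log2 processed intensities from which the 75th percentile of that array was subtracted, so a level of 0 is that of a probe at this percentile. Probes differ in brightness, so levels are compared between arrays and never between genes.

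Stat2 and Irf9 are the parts of ISGF3 among the members. The level of Stat2 was 1.99, 1.95, 2.32 and 2.42 in Atm-/- cells at 0, 4, 8 and 24 h, against 2.68, 2.75, 2.89 and 3.36 in Atm+/+ cells. Every Atm-/- array was below the lowest Atm+/+ array, and within both genotypes the 24 h array was the highest. The difference was -0.75 ± 0.09 (SE, 95% interval -0.97 to -0.52, adjusted p = 0.00841), or 1.68-fold lower in Atm-/- cells. The gap was between 0.57 and 0.94 at the 4 time points.

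Irf9, the DNA-binding part of ISGF3, was read by 3 probes. Its main probe (NM_008394) had levels of -0.51, -0.60, -0.33 and 0.21 in Atm-/- cells at 0, 4, 8 and 24 h, and of 0.37, 0.21, 0.25 and 0.39 in Atm+/+ cells. The Atm+/+ values lay within 0.19 of each other. In Atm-/- cells 3 arrays were clearly lower and the 24 h array just reached the lowest Atm+/+ value. The difference was -0.61 ± 0.13 (SE, adjusted p = 0.0425), and it was 0.88 wide at 0 h and 0.19 wide at 24 h. The other probes gave -0.71 ± 0.09 (NM_001159417, adjusted p = 0.0112) and -0.61 ± 0.10 (NM_001159418, adjusted p = 0.0212), so all probes of the gene were called lower.

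Irf7 is the factor that amplifies interferon production once interferon has been sensed. Its level was -1.40, -1.44, -0.72 and -0.46 in Atm-/- cells at 0, 4, 8 and 24 h, against 0.04, -0.06, 0.45 and 1.00 in Atm+/+ cells. The highest Atm-/- array, at 24 h, stayed below the lowest Atm+/+ array, at 4 h. The difference was -1.36 ± 0.08 (SE, 95% interval -1.57 to -1.16, adjusted p = 0.00233), or 2.57-fold lower in Atm-/- cells. It was already 1.45 without treatment and ranged from 1.17 to 1.46 over the 4 time points, so both genotypes ran nearly in parallel. Irf3, its partner upstream of the interferon genes, is made in most cells as a latent protein, but its probe gave no level here.

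Irf1 activates antigen presentation and interferon-gamma genes. Its main probe (NM_001159396) had levels of 0.12, 1.09, 1.15 and 1.25 in Atm-/- cells at 0, 4, 8 and 24 h, and of 1.34, 1.79, 1.75 and 1.67 in Atm+/+ cells. The untreated Atm-/- array stood far below the other Atm-/- arrays, and even the highest Atm-/- value was below the untreated Atm+/+ value. The difference was -0.74 ± 0.15 (SE, adjusted p = 0.0330), or 1.67-fold lower in Atm-/- cells. The second probe (NM_008390) read 0.54, 0.77, 0.73 and 0.64 in Atm-/- cells, against 0.91, 1.47, 1.31 and 1.40 in Atm+/+ cells. It gave a like difference of -0.60 ± 0.09 (SE, adjusted p = 0.0165), but without the low untreated Atm-/- array.

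Irf2, the competitor of IRF1, read 1.69, 1.81, 1.81 and 1.50 in Atm-/- cells at 0, 4, 8 and 24 h, against 1.76, 1.99, 1.94 and 1.82 in Atm+/+ cells. The genotypes overlapped, and the lowest value was that of Atm-/- cells at 24 h. The difference of -0.18 ± 0.07 (SE, 95% interval -0.37 to 0.01) did not pass the test (adjusted p = 0.178).

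Irf8, best known as a factor of monocytes, macrophages and dendritic cells, had the largest difference among the members. Its level was -1.97, -2.59, -2.27 and -2.42 in Atm-/- cells at 0, 4, 8 and 24 h, against -0.70, -1.29, -0.32 and -0.76 in Atm+/+ cells. The highest Atm-/- array (-1.97) was below the lowest Atm+/+ array (-1.29). The difference was -1.54 ± 0.14 (SE, 95% interval -1.90 to -1.19, adjusted p = 0.00463), or 2.92-fold lower in Atm-/- cells, and it was widest at 8 h, at 1.95.

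Blood cell and macrophage markers moved the same way. Of 20 such markers detected, 17 were called lower in Atm-/- cells and 0 higher, with a median difference of -1.26, and 16 of the 20 were well above background on all 8 arrays. The summed level of the 17 with a value on every array, as multiples of the 75th percentile intensity, was 33.0 to 37.5 on Atm-/- arrays and 63.5 to 95.4 on Atm+/+ arrays. The receptor gene Csf1r differed by -1.20 and the lysozyme gene Lyz2 by -1.33 on the log2 scale, while Spi1, a master factor of the lineage, differed by -0.27 (adjusted p = 0.322), and the pan-leukocyte gene Ptprc was not detected. Of the dendritic cell markers Siglech, Ly6d, Flt3 and Xcr1 were not detected, and 4 were detected, all with a negative difference and a median of -0.20. Of these Bst2, which is itself interferon-inducible, was called lower in Atm-/- cells (-0.74, adjusted p = 0.0131), and Tcf4, Batf3 and Itgax, at -0.23 to -0.16, were not called. Epithelial markers ran the other way, with 6 of 8 called higher in Atm-/- cells, 0 lower and a median of 0.90, and so did endothelial markers, with 3 of 7 called higher, 0 lower and a median of 0.34. With arrays left out the calls were 2 to 5 for epithelial and 2 to 3 for endothelial markers. In RNA of a whole culture, fewer cells of a type and less RNA per cell cannot be told apart, and the part of these cells in the results for Irf8, Irf7 and the other members was not tested.

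Irf5, which carries Toll-like receptor signals in immune cells, read -0.38, -0.21, 0.01 and -0.61 in Atm-/- cells at 0, 4, 8 and 24 h, against -0.32, -0.17, 0.00 and 0.02 in Atm+/+ cells. The genotypes were within 0.06 of each other at 0, 4 and 8 h and stood 0.64 apart at 24 h, where the Atm-/- array was the lowest of all. Over all time points the difference was -0.18 ± 0.13 (SE, 95% interval -0.52 to 0.16, adjusted p = 0.396).

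Stat3 was read by 3 probes. Its main probe (NM_011486) had levels of 1.36, 1.20, 1.20 and 1.23 in Atm-/- cells at 0, 4, 8 and 24 h, against 1.70, 1.48, 1.27 and 1.71 in Atm+/+ cells. The Atm-/- arrays lay within 0.16 of each other, and the Atm+/+ arrays dipped at 8 h, where the genotypes were 0.07 apart. The difference was -0.29 ± 0.09 (SE, 95% interval -0.52 to -0.06), which did not pass the test after adjustment (adjusted p = 0.0962). The other probes gave -0.31 and -0.22, with adjusted p of 0.101 and 0.139.

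**Figure D2:**
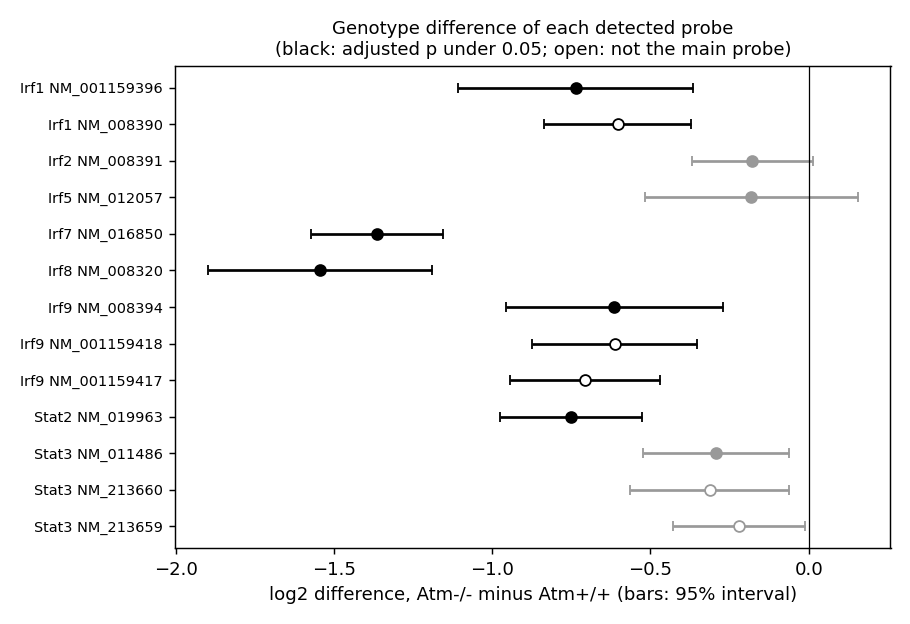
Log2 difference between genotypes, Atm-/- minus Atm+/+ (horizontal axis), of each of the 13 detected probes of the 8 genes, with 95% intervals from limma. Black marks have an adjusted p under 0.05 and grey marks do not, and open circles are probes other than the main one. All differences are negative, and those of Irf7 and Irf8 (-1.36 and -1.54) stand farthest from 0.

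The treatment comparison asks how these factors differed between NCS-treated and untreated cells over both genotypes. Untreated cells were read at 0 h only, so the effect of NCS cannot be told apart from time in culture. Of the 8 tested members 0 were called over all treated time points together, where Irf1, Irf7 and Stat2 had an unadjusted p under 0.05 in limma's test and 48 of 23296 probes (0.206%) were called. Among main probes Irf1 had the largest estimate, 0.72 ± 0.17 (SE, adjusted p = 0.248). Its second probe gave 0.33, below Irf7 at 0.48, and without the Atm-/- 0 h array the main Irf1 probe gave 0.40 and Irf7 0.42. At 4 h 0 of 8 members were called, with 2 at an unadjusted p under 0.05 and 0.107% of all probes called. At 8 h it was also 0 of 8, with 2 at an unadjusted p under 0.05 and 0.258% of all probes called.

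At 24 h Irf7 rose, the only member called against untreated cells. It gained 0.95 in Atm-/- cells and 0.96 in Atm+/+ cells (log2, each from 1 array against 1), and the fitted change was 0.95 ± 0.12 (SE, 95% interval 0.66 to 1.25, adjusted p = 0.0456), or 1.94-fold. At 4 h it stood at -0.04 in Atm-/- and -0.10 in Atm+/+ cells relative to untreated, and at 8 h it was higher by 0.68 in Atm-/- and 0.40 in Atm+/+ cells. Of all 23163 probes tested at 24 h 2.55% were called and 1.07% were called higher. A single call among 8 members (12.5%) is too few to be set apart from these shares. The call was lost when any 1 of the 8 arrays was left out (adjusted p = 0.0552 without the Atm+/+ 24 h array to 0.272 without the Atm+/+ 0 h array), with the change itself between 0.89 and 1.02.

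The other members at 24 h did not pass the test. Stat2 was higher by 0.43 in Atm-/- and 0.69 in Atm+/+ cells (fitted 0.56 ± 0.12, SE, adjusted p = 0.0810). Irf1 was higher by 1.14 in Atm-/- and 0.33 in Atm+/+ cells on its main probe (fitted 0.73 ± 0.21, SE, adjusted p = 0.112) but by 0.10 in Atm-/- and 0.49 in Atm+/+ cells on its second probe. The main Irf9 probe was higher by 0.71 in Atm-/- cells and by 0.02 in Atm+/+ cells (fitted 0.37 ± 0.19, SE, adjusted p = 0.285). Irf8 was lower at 4 h by 0.62 in Atm-/- and 0.59 in Atm+/+ cells, the same direction in both, with a fitted change of -0.61 ± 0.20 (SE) that did not pass the adjustment (adjusted p = 1.00). The 4, 8 and 24 h comparisons share the untreated arrays, so a low or high untreated array moves all 3.

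**Figure D3:**
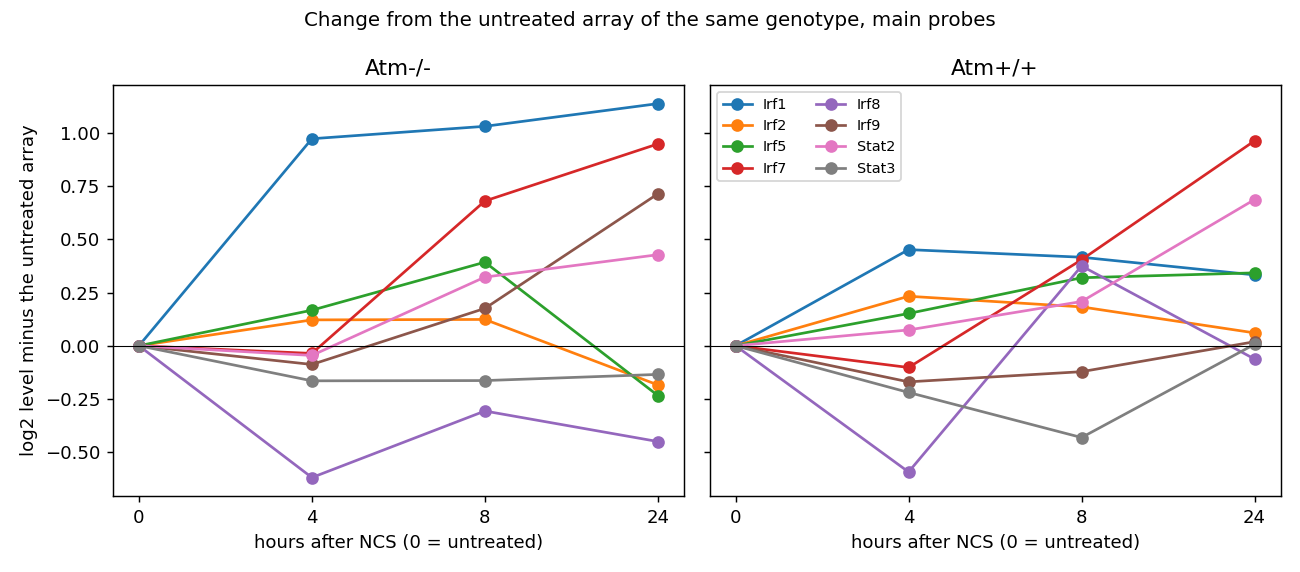
Log2 change from the untreated array of the same genotype (vertical axis) at 0, 4, 8 and 24 h (horizontal axis, times evenly spaced) for the main probe of the 8 genes, Atm-/- on the left and Atm+/+ on the right, 1 array per point. Irf7 ends close to 0.95 above untreated in both genotypes, Irf1 rises furthest in Atm-/- cells (1.14 at 24 h), and Irf8 dips by about 0.6 at 4 h in both.

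Whether the response to NCS differed between genotypes was tested as an interaction, which leaves 2 residual degrees of freedom. Of the 8 members 0 were called, with 1 at an unadjusted p under 0.05, and 0 of 23170 probes (0.0%) were called in all, with 571 at an unadjusted p under 0.05. The member was Irf1, whose main probe gained 1.05 ± 0.16 (SE) over treated arrays in Atm-/- cells and 0.40 ± 0.16 (SE) in Atm+/+ cells, a difference of response of 0.65 ± 0.21 (SE). The second Irf1 probe ran the other way, with 0.17 ± 0.16 (SE) in Atm-/- cells and 0.48 ± 0.16 (SE) in Atm+/+ cells and a difference of response of -0.31 ± 0.19 (SE). Within each genotype alone, where a single untreated array stood against 3 treated ones and was assumed to vary as they do, limma called 0 of 8 members in Atm-/- cells (0.0259% of all probes) and 0 of 8 in Atm+/+ cells (0.00859%). In each genotype 1 member had an unadjusted p under 0.05, in both cases Irf1. The smallest adjusted p among these was 0.269, for Irf1 in Atm-/- cells.

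The genes whose pattern over the 8 arrays was most like that of each member were sought among 11407 genes well above background on every array. The measure was Pearson's r over 8 arrays, which share the genotype gap, the slide and the time points, so it is a description with no test. Nearest to Irf7 were the RNA sensor gene Ifih1 (r = 0.995), Phf11a (0.993) and Stat2 (0.991). Nearest to Stat2 were the interferon-inducible GTPase gene Igtp (0.994), Spaca4 (0.994) and Irf7. Irf7 and Stat2 stand in each other's list through the same value of r, and Ifih1 and Igtp are themselves known as interferon-inducible. Irf8 ran closest to the homeobox gene Hhex (0.974), Tenm4 (0.973) and Ccdc116 (0.970), and Irf9 to Tmem106a (0.981), Aldh1l2 (0.978) and Ccser2 (0.977). Irf1 ran closest to Prdm1 (0.967), which encodes the repressor Blimp-1, Fpgt (0.963) and the adaptor gene Blnk (0.957). For the members with no call the nearest genes were Wdr91 for Irf2 (0.964), Rnaset2b for Irf5 (0.979) and Pdxk-ps for Stat3 (0.978). Among the members themselves r was highest for Irf7 with Stat2 and lowest for Irf5 with Irf9, at 0.07.

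The rest of the pathway is described by lists, upstream genes first. Of 21 interferon and interleukin-6 family ligands 10 were detected, and Ifnb1 and Ifng were not among them. Between genotypes 3 ligands were higher in Atm-/- cells and 1 was lower. Il11, an interleukin-6 family cytokine, was higher by 1.47 ± 0.09 (SE, adjusted p = 0.00245), Cntf by 0.64 and the interferon gene Ifnz by 0.45. Osm, the ligand oncostatin M, was the 1 lower call. It was well above background on 0 of 4 Atm-/- arrays, where it was at least 2.48-fold lower, and was kept through the 4 Atm+/+ arrays alone, so its call is no independent support. A bound of this kind sets each dim value to no less than the lowest signal well above background on its array.

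Of 12 receptors 4 were lower in Atm-/- cells and 0 higher. They were Il10ra by -1.13 ± 0.09 (SE, adjusted p = 0.00381), Osmr by -0.70, Lifr by -0.50, which lacks its Atm+/+ 24 h value, and Il6st by -0.47, the shared receptor chain of the interleukin-6 family. The interferon receptor genes Ifnar1, Ifnar2, Ifngr1 and Ifngr2 were not called. Of the 4 JAK kinase genes 0 were called between genotypes in limma's test, with 1 at an unadjusted p under 0.05 and a median of 0.07. Of the 14 detected genes that activate IRFs, such as the kinase gene Tbk1 and the adaptor gene Mavs, 0 were called, with 2 at an unadjusted p under 0.05 and a median of -0.10.

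Of 21 inhibitors and cofactors 5 were lower in Atm-/- cells and 1 was higher. Usp18, which shuts down the type I interferon receptor and is itself interferon-inducible, differed by -1.50 ± 0.12 (SE, adjusted p = 0.00352). Ptpn6 (-1.10), Nmi (-0.99) and the STAT3 inhibitor Socs3 (-0.97) were lower as well, without an Atm+/+ 24 h value. The list as a whole had a median of -0.06. Stat4, which carries interleukin-12 signals, was lower by -1.08 ± 0.12 (SE, adjusted p = 0.00809). Stat5a, Stat5b and Stat6 had differences between -0.04 and 0.06 and were not called, and Irf4 was not detected. With single arrays or both arrays of a time point left out, the genes called lower numbered 2 to 4 of the receptors and 1 to 6 of the inhibitors and cofactors. Of the 17 inhibitors and cofactors well above background on all 8 arrays 1 was called lower.

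Antiviral target genes were mostly lower in Atm-/- cells. Of 28 detected targets of ISGF3 23 were called lower and 0 higher, with a median of -1.20. Oasl2, an antiviral gene of the oligoadenylate synthetase family, read -3.97, -3.97, -3.13 and -2.27 in Atm-/- cells at 0, 4, 8 and 24 h, against -0.89, -0.96, -0.23 and 0.71 in Atm+/+ cells, a difference of -2.99 ± 0.07 (SE, adjusted p = 0.000336). Trim30a and Ifit1 differed by -2.09 and -1.99. Oas1a was well above background on 0 of 4 Atm-/- arrays, where it was at least 2.24-fold lower, and was kept through the Atm+/+ arrays alone. Of the 24 ISGF3 targets well above background on all 8 arrays, which leaves out Oas1a, 22 were called lower. The count of ISGF3 targets called lower was 14 without a 0 h or a 4 h array of either genotype, 16 without an 8 h array and 24 without a 24 h array. These lists were chosen with earlier results of these data known, and Irf7, Stat2 and Irf9 are interferon-inducible as well.

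Of 19 detected genes known as inducible by interferon-gamma, antigen presentation genes among them, 12 were called lower in Atm-/- cells and 0 higher, with a median of -0.78. Psmb8, an immunoproteasome subunit, differed by -1.82 ± 0.08 (SE, adjusted p = 0.00160), and the guanylate-binding protein genes Gbp7 (without an Atm+/+ 24 h value), Gbp6 and Gbp3 by -1.72, -1.43 and -1.33. Of 19 detected targets of STAT3 4 were lower and 1 was higher, with a median of -0.08. Bcl3 differed by -1.10, Socs3 by -0.97, Nnmt and Osmr each by -0.70 and the kinase gene Pim1 by 0.43. Without a 0, 4 or 8 h array of either genotype 6 or 7 of the interferon-gamma-inducible genes were called lower. The background share of named genes was 7.45% for lower calls and 7.55% for higher calls.

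After NCS most calls in the target lists came at 24 h. At 24 h 5 of 28 ISGF3 targets were called higher and 0 lower, with a median of 0.85, against a median of -0.06 over all named genes and 1.3% of them called higher. Ifit3 rose by 2.63 ± 0.26 (SE, adjusted p = 0.0439), Ifit1 by 2.34 ± 0.20 (SE, adjusted p = 0.0384), Oasl2 by 1.65 and Parp14 by 1.00. Of the interferon-gamma-inducible genes 6 of 19 were called higher, with a median of 1.16, among them Gbp7 (1.41) and Tapbp (1.32), both without an Atm+/+ 24 h value, Gbp3 (1.27) and Irgm2 (1.26). At 4 h limma called 0 genes in either list, with 3 ISGF3 targets and 6 interferon-gamma-inducible genes at an unadjusted p under 0.05. At 8 h Parp14 alone was called in these lists, at 1.15 ± 0.11 (SE, adjusted p = 0.0451), and no ISGF3 target was called there with normexp, without the filter on dim probes, with marked spots removed first or without any 1 of the 0, 4 and 8 h arrays. The medians at 8 h were 0.29 for ISGF3 targets and 0.63 for interferon-gamma-inducible genes, with 11 of 28 and 13 of 19 at an unadjusted p under 0.05. Blood and macrophage markers mostly moved with these at 24 h, with 3 of 20 called higher, 5 negative and a median of 0.40. No such marker was called with any 1 array left out, without the filter on dim probes or with marked spots removed first. Their part was not tested. Leaving out any 1 of the 8 arrays left 0 calls in both target lists at 24 h, except for 1 ISGF3 target without the Atm-/- 24 h array. Calls over all probes at 24 h were nearly all lost as well, and these smaller fits have fewer residual degrees of freedom. The median of the ISGF3 targets stayed between 0.61 and 0.85, and it was unchanged without a 4 h or an 8 h array.

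STAT3 targets split at 24 h, with 4 of 19 called higher, 0 lower and a median of 0.06. Lcn2 and Saa3, acute-phase genes that NF-kB also drives, rose by 3.49 ± 0.20 and 3.40 ± 0.33 (SE, adjusted p = 0.0349 and 0.0456), and they were called at 8 h too, at 2.84 and 4.11. Saa3 lacks its Atm+/+ 24 h value. At 24 h no STAT3 target was called once any 1 array was left out, and at 8 h none was called without a 0 h or 8 h array. Il4ra and the receptor gene Osmr rose by 0.67 and 0.66. Upstream, Ikbke, a kinase that phosphorylates IRF3 and IRF7, rose at 24 h by 1.13 ± 0.16 (SE, adjusted p = 0.0463), Usp18 rose by 1.06 ± 0.17 (SE, adjusted p = 0.0498) and Il11 fell by 1.05 on the log2 scale. No other gene of the ligand, receptor and JAK kinase lists was called at 24 h beside Osmr. The calls of Ikbke, Usp18 and Il11 were lost with any 1 array left out, without the filter on dim probes and with marked spots removed first.

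**Figure D4:**
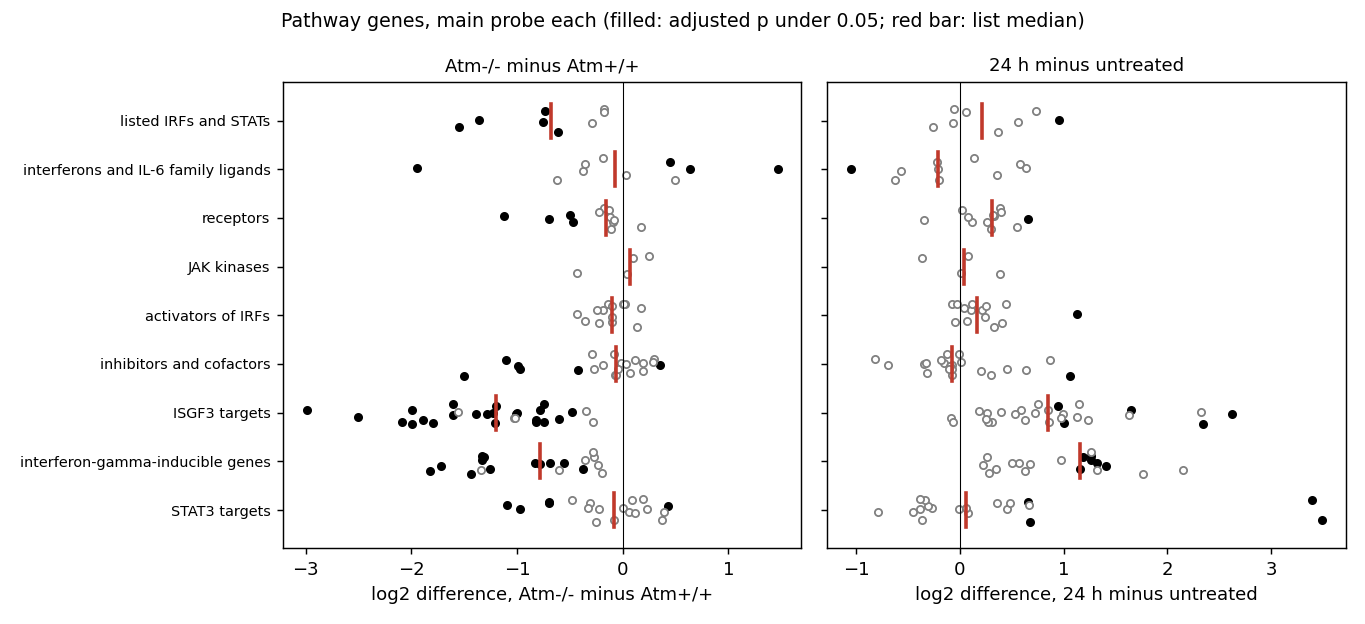
Log2 difference of each detected gene of the pathway lists (points, main probe), Atm-/- minus Atm+/+ on the left and 24 h minus untreated on the right. Filled points have an adjusted p under 0.05 in limma, open points do not, and the red bar is the median of the list. Between genotypes the ISGF3 targets centre on -1.20 and the listed IRFs and STATs on -0.68, while JAK kinases and activators lie near 0. At 24 h the ISGF3 targets and the interferon-gamma-inducible genes centre on 0.85 and 1.16.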

How the data were processed

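Levels came from the scanner files of 8 one-colour arrays, whose design follows the mouse assembly mm9. Per the file headers, Feature Extraction gave each spot a processed intensity with local background subtracted, and the authors deposited it without normalization between arrays. Per the labels, ribosomal RNA was removed and targets were made by random priming along whole transcripts. Replicate spots were averaged as log2 values, and the 75th percentile of 37246 measured probes was subtracted on each array. A value was dropped where every spot was marked as an outlier. The 23300 probes well above background on at least 2 arrays were kept. Symbols came from RefSeq, and the main probe of a gene was the one with the highest mean.

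limma 3.58.1 in R 4.3.3 was used, two-sided, with Benjamini-Hochberg adjustment over all kept probes with a value. Genotype and NCS effects came from time point plus genotype, the interaction from an added genotype-by-treatment term, and within-genotype effects from 4 groups. The script was tested on simulated data. Alternatives were quantile scaling, normexp, other filters, a variance trend, no time term and left-out arrays. All members and up to 4 called genes per list with the largest differences were named, together with Irf4, Stat4, Stat5a, Stat5b and Stat6. Some related genes are not reported here. Marker genes were named after their values were seen. Members and lists were chosen with earlier results of these data known. The number of arrays limits the precision. The other deposited tables hold noncoding probes and were not used.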

Additional observations from a re-analysis of the deposited data

Results flagged for a closer look

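Each probe of a member was checked within each genotype for a single array that stands apart from the other 3, by Dixon's ratio of the gap to the range against its 95% critical value. Of 26 checks 3 exceeded it, and chance alone exceeds it in about 1 of 20 groups. The untreated Atm-/- array was low for the main Irf1 probe (NM_001159396), with a ratio of 0.855 and a level of 0.12 while the other Atm-/- arrays were between 1.09 and 1.25. The Atm-/- 24 h array was high for both further Irf9 probes, with ratios of 0.852 (NM_001159417, level 0.06) and 0.840 (NM_001159418, level 0.13). Each of these arrays is also the only one of its genotype and time point, so whether it differs through the treatment or through the array cannot be told apart.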

How the results depend on the processing

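The 5 genotype calls were 5 with quantile scaling, normexp, a filter for all 8 arrays, early removal of marked spots and 1 probe per gene, and 6 with a variance trend, which added Stat3 (adjusted p = 0.04997). They fell to 3 without a filter on dim probes and to 3 without the time term, Irf1 and Irf9 being lost in both. Left-out arrays gave 2 to 5. Calls over all probes were 3416 (49.6% of them higher), against 2130 without the filter, 2247 (39.9% higher) with marked spots removed first, 2240 without the time term, 3363 (39.1% higher) with normexp and 1085 to 4218 with left-out arrays. The single 24 h call became 0 without the filter, 0 with marked spots removed first (Irf7 then 1.15, adjusted p = 0.0751), 2 with the trend and 0 with every left-out array. Removing marked spots first put the median of all probes at 24 h at 0.12 in place of -0.07. The 591 probes called at 24 h became 0 without the filter, 33 with marked spots removed first, 1146 with the filter for all 8 arrays, 1724 with the trend and 0 to 7 with left-out arrays. The other 6 counts of members were 0 in every setting run. The Irf9 change over all treated arrays, 0.09, was -0.0907 to 0.267 with left-out arrays, being -0.0907 without the Atm-/- 0 h array, -0.0066 without the Atm-/- 24 h array and -0.0509 without both 24 h arrays. Causes were not tested, but smaller fits have fewer residual degrees of freedom. Effects that need the 0 h arrays could not be fitted without them. The settings for the lists were added after the data were seen. No paired analysis was possible because the labels give no replicate numbers, and the time term links arrays of 1 time point.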
